A study of Arabidopsis thaliana with 18 samples.

Results

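In TIF-seq, the cap end and the poly(A) end of the same RNA molecule are sequenced together, and a read pair therefore links a transcription start site (TSS) with the polyadenylation site (PAS) used by that molecule. Here, transcripts of *hen2-2* seedlings after 3 h at 4 °C were compared with those of *hen2-2* seedlings kept at 22 °C. Both groups were *Arabidopsis thaliana* seedlings aged 14 days in the Col-0 background that carried the *hen2-2* allele. They had grown on plates at 22 °C/18 °C in long days. The cold group was moved to a lit cold room for 3 h before harvest, and the other was not. The labels and methods do not give the hour at which either group was harvested, so temperature and time of day cannot be told apart. Each group is represented by 1 deposited list that pools 2 libraries, which makes 4 of the 18 samples of the series. Wild-type Col-0 seedlings at 22 °C and after 3 h at 4 °C, with 1 pooled list each, are given beside them. Whole seedlings were used, so a lower level in fewer cells and a lower level in every cell cannot be told apart.

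The nuclear exosome degrades RNA from its 3′ end, and HEN2 is an RNA helicase that delivers nuclear RNA to it. Plants without HEN2 keep many RNAs that are otherwise short-lived, among them short RNAs that begin at promoters and end soon after. Cold is sensed by *Arabidopsis* within minutes. Calcium enters the cytosol, a wave of transcription factors such as the CBF proteins is induced, and these bind promoters of *COR* genes, whose products protect membranes and proteins against freezing. *HEN2* (AT2G06990) itself had no TIF-cluster in either *hen2-2* list and 4 read pairs (22 °C) and 0 read pairs (4 °C) in wild type, too few to check the genotype label.

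Because replicates were pooled before TIF-clusters were formed, no spread between seedlings or libraries can be given and no test was made. Intervals in brackets are 95% counting intervals. They cover counting error only and are too narrow as statements about temperature. The *hen2-2* lists hold 794299 (22 °C) and 410655 (4 °C) read pairs in 48762 and 31998 TIF-clusters, and the wild-type lists 843121 and 690139 read pairs. A TIF-cluster is a group of read pairs whose ends lie within 20 nt of each other, and those of fewer than 3 pairs are not listed. In *hen2-2*, 98.5% (22 °C) and 98.2% (4 °C) of the pairs lay on the strand of exactly 1 coding gene. The pair-weighted median width of full-length TIF-clusters was 1564 nt at 22 °C and 1468 nt at 4 °C in *hen2-2*, and 1512 nt and 1538 nt in wild type. Shoot genes were abundant at both temperatures (4499 and 3866 pairs of *RBCS1A*, a Rubisco subunit with close paralogs), the root gene *PYK10* had 3324 and 1989 pairs, and the floral genes *AP1*, *AP3* and *AG* were listed at 0 in both. The seed storage gene *CRA1* had 41 pairs at 22 °C and 6 at 4 °C in *hen2-2* and was listed at 0 in both wild-type lists. Its part in the results was not tested.

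Of 27444 coding genes, 6154 had at least 20 read pairs over both *hen2-2* lists and were compared as read pairs per 1000000 pairs of the list (RPM). At 4 °C, 591 genes (9.6%) were at least 2-fold higher and 1235 genes (20.1%) at least 2-fold lower. Among these, 32 were listed only at 4 °C and 201 only at 22 °C. The median log2 ratio of 4 °C over 22 °C was -0.19 over the 5921 genes with TIF-clusters in both lists. The excess of lower over higher genes depended on depth: with the 22 °C list thinned to the total of the 4 °C list, 558 of 4512 genes were higher (12.4%) and 565 lower (12.5%). With the further condition that the counting interval leaves out 1, 523 genes were higher and 968 lower.

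**Figure D1:**
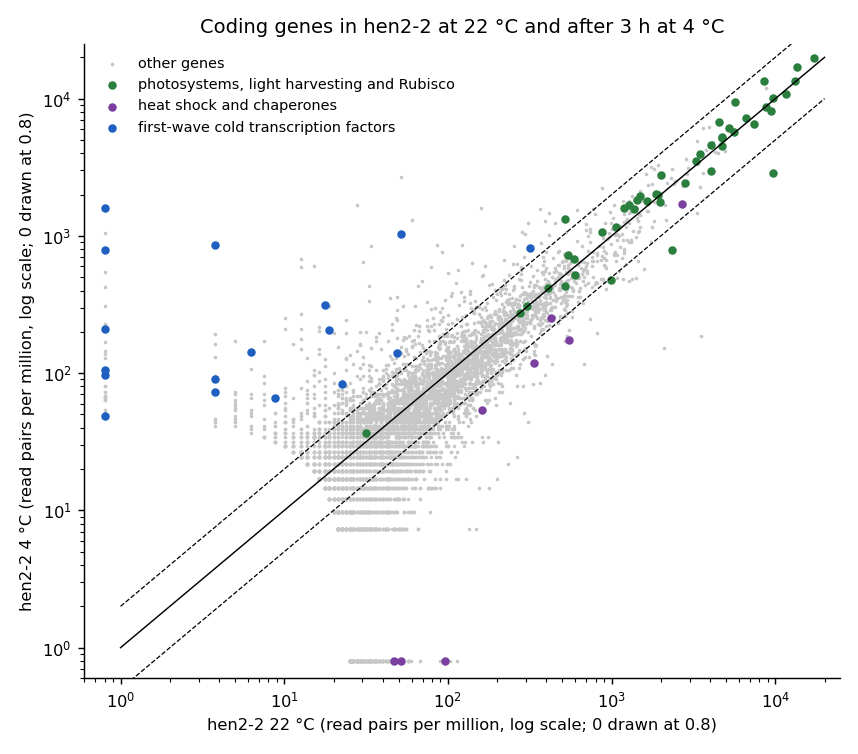
RPM in *hen2-2* at 22 °C (x axis) and after 3 h at 4 °C (y axis) for the 6154 genes with at least 20 pairs over both lists, both axes on a log scale, with genes listed at 0 drawn at the margin. The solid line marks equal levels and the dashed lines 2-fold differences; the 17 cold transcription factors measured all lie above the upper dashed line, and 42 of 46 photosystem genes lie between the dashed lines.

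Early cold-response transcription factors were higher at 4 °C. Of 19 listed genes, 17 had enough pairs to be compared and 17 were higher, beside 9.6% of all genes. For 6 of them, listed at 0 at 22 °C, the minimum of 20 pairs was met by the 4 °C list alone, which fixed their call. *ZAT10*, *HSFC1* and *ERF6* (3 pairs each at 22 °C), *WRKY33* (5) and *ZAT6* (7) could reach it only with a 4 °C count that made them higher. The count of 17 is therefore a description, as is the median below, which includes these genes. The summed level of the 19 listed genes was 509.9 RPM at 22 °C and 6716 RPM at 4 °C. The median log2 ratio of the 11 with TIF-clusters in both lists was 4.14. *DEAR1* (4 pairs at 22 °C, listed at 0 at 4 °C) and *ERF11* (listed at 0 at 22 °C, 16 pairs at 4 °C) had too few pairs to be compared. This list was chosen with earlier results of these data known.

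The CBF genes encode AP2-type activators that bind the CRT/DRE element of *COR* promoters. *CBF1*, *CBF2* and *CBF3* (RefSeq symbol *DREB1A*) lie in tandem on chromosome 4. All of them were listed at 0 at 22 °C. At 4 °C, *CBF2* (AT4G25470, chr4:13015250-13016235, minus strand) had 655 read pairs, *CBF3* 324 and *CBF1* 43, and *CBF4* on chromosome 5 had 20. Wild type showed the same order for the tandem genes, with 1039 pairs of *CBF2*, 410 of *CBF3* and 75 of *CBF1* at 4 °C, all listed at 0 at 22 °C. The paralogs are similar in sequence and only unique alignments were kept, so their order is uncertain. Full-length TIF-clusters, which span the coding sequence, held 559 of the 655 pairs of *CBF2* but 19 of the 43 pairs of *CBF1*.

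The promoters of the cold-induced genes are shown here because the motifs discussed for cold and clock regulation can be read in them. Each sequence holds the 250 bases before the annotated gene start, 5′ to 3′ on the strand of the gene, from the TAIR10.1 reference of RefSeq. Capitals mark the core of the CRT/DRE bound by CBF proteins (CCGAC), the core of the ABRE bound by bZIP factors (ACGTG), the evening element core (AAATATCT) and the G-box (CACGTG), each on either strand. Every G-box holds the ABRE core on both strands. *CBF1*, *CBF2* and *CBF3* each carried 1 evening element core, and *CBF2* also 1 G-box. The clock gene *FKF1* carried 2 evening element cores and *PRR9* 2 G-boxes among 5 ABRE cores, whereas the *COR* genes *XERO2* and *RD29A*, shown as those with most of them, carried 3 CRT/DRE cores each. Of the other higher *COR* genes, *COR15A* carried 2 and *BAM3*, *ERD10*, *ERD14* and *COR15B* carried 0.
CBF1 (chr4:13022997-13023246, minus): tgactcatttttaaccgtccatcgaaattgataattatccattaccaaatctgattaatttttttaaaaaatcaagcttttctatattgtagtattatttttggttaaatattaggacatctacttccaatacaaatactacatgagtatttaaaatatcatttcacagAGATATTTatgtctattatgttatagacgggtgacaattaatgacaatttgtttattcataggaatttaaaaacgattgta
CBF2 (chr4:13016236-13016485, minus): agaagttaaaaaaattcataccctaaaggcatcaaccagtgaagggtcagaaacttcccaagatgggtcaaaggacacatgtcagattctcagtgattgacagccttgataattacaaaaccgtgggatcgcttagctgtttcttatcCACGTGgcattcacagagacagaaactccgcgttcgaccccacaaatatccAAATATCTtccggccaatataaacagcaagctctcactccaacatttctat
CBF3 (chr4:13019401-13019650, minus): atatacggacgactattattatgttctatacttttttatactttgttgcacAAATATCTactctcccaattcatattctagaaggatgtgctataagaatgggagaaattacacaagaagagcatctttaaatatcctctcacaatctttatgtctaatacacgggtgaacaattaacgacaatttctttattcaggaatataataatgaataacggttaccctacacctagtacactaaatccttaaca
FKF1 (chr1:25508389-25508638, plus): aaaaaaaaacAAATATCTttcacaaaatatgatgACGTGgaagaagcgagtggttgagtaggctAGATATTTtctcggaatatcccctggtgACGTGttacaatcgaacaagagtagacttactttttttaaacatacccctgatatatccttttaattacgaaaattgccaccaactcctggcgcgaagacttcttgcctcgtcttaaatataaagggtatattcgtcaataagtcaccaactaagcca
PRR9 (chr2:19232357-19232606, plus): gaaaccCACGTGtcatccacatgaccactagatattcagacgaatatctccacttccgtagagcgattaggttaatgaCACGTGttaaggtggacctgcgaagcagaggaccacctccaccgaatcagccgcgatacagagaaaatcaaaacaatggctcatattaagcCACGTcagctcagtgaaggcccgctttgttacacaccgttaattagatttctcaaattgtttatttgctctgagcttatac
XERO2 (chr3:18940393-18940642, plus): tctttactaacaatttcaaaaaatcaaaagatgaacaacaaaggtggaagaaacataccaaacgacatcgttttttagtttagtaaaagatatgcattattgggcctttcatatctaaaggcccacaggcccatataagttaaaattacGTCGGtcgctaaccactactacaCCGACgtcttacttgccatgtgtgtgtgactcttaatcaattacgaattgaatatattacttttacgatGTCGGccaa
RD29A (chr5:21240467-21240716, plus): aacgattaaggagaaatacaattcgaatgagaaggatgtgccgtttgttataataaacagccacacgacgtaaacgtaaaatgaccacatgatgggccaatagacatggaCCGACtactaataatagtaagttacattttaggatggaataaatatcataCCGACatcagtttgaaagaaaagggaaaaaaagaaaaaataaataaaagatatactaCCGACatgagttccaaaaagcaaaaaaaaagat
The most used 5′ end of full-length TIF-clusters lay 1 nt before the annotated start in *CBF2* and 24 to 137 nt after it in *FKF1*, *PRR9*, *XERO2* and *RD29A*. In *CBF1* and *CBF3* it lay 261 and 256 nt after it, so the window shown for them is farther from the TSS in use. Its median distance was 101 nt over 5866 measured genes.

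The motif shares of all changed genes are given beside those of all measured genes. The evening element core was present before 48 of the 590 higher genes with a full window (8.14%, interval 6.19 to 10.6%), 70 of 1235 lower genes (5.67%) and 347 of 6153 measured genes (5.64%). It was present in 4.79% of the promoters of all 27443 coding genes with a full window. Among the 199 genes at least 4-fold higher, 23 had it (11.6%, interval 7.83 to 16.7%). The CRT/DRE core was present in 14.2% of higher, 12.8% of lower and 13.9% of measured genes. The ABRE core was present in 27.3%, 22.8% and 24.5%, and the G-box in 9.15%, 7.29% and 8.08%. The corresponding shares of all coding genes were 12.0% for the CRT/DRE core, 22.9% for the ABRE core and 6.49% for the G-box. The intervals of the higher genes held the value of all measured genes for the CRT/DRE core, the ABRE core and the G-box, but not for the evening element core. Before the most used 5′ end, the ABRE core was present in 36.6% (32.6 to 40.6%) of higher and 30.8% of measured genes. In those windows the evening element core was present in 7.82% (5.86 to 10.4%) of higher and 5.95% of measured genes. That interval held the value of all measured genes, so which motif stood out depended on the window. These are counts of letters in a window and not of bound sites.

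C2H2 zinc-finger factors, which repress or tune stress genes, included the gene with the highest ratio. *ZAT10* (AT1G27730, RefSeq symbol *STZ*) had 3 pairs at 22 °C and 355 at 4 °C, a ratio of 229 (77.7 to 1115) that rests on a single TIF-cluster of 3 pairs at 22 °C. In wild type it had 49 and 995 pairs. *ZAT12* had 15 and 85 pairs (10.96-fold, 6.29 to 20.4), and *ZAT6* 7 and 27. The CCCH zinc-finger gene *CZF1* was listed only at 4 °C in *hen2-2* with 40 pairs, whereas wild type had 35 pairs at 22 °C and 197 at 4 °C.

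Ethylene-response, WRKY, RAV and heat shock factors followed the same direction. *RAV1* had 41 and 424 pairs (log2 ratio 4.32, or 14.5- to 28.3-fold). *ERF5* had 14 and 128 pairs, *ERF6* 3 and 37, and *HSFC1* 3 and 30. *WRKY33*, a regulator of defence, had 5 and 59 pairs, and *WRKY40* was listed only at 4 °C with 86. The lowest ratios of the list were 2.58 (2.18 to 3.05) for *MYB44* (253 and 337 pairs), 2.88 for *TEM2* (39 and 58 pairs) and 3.65 for *MYB73* (18 and 34 pairs). At 22 °C *HSFC1* and *ERF6* had 3 promoter short pairs each and no full-length pair, against 22 and 34 full-length pairs at 4 °C. *MYB73* went the other way, with 15 full-length pairs at 22 °C and none at 4 °C, where its TIF-clusters began at least 623 nt after the annotated start.

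**Figure D2:**
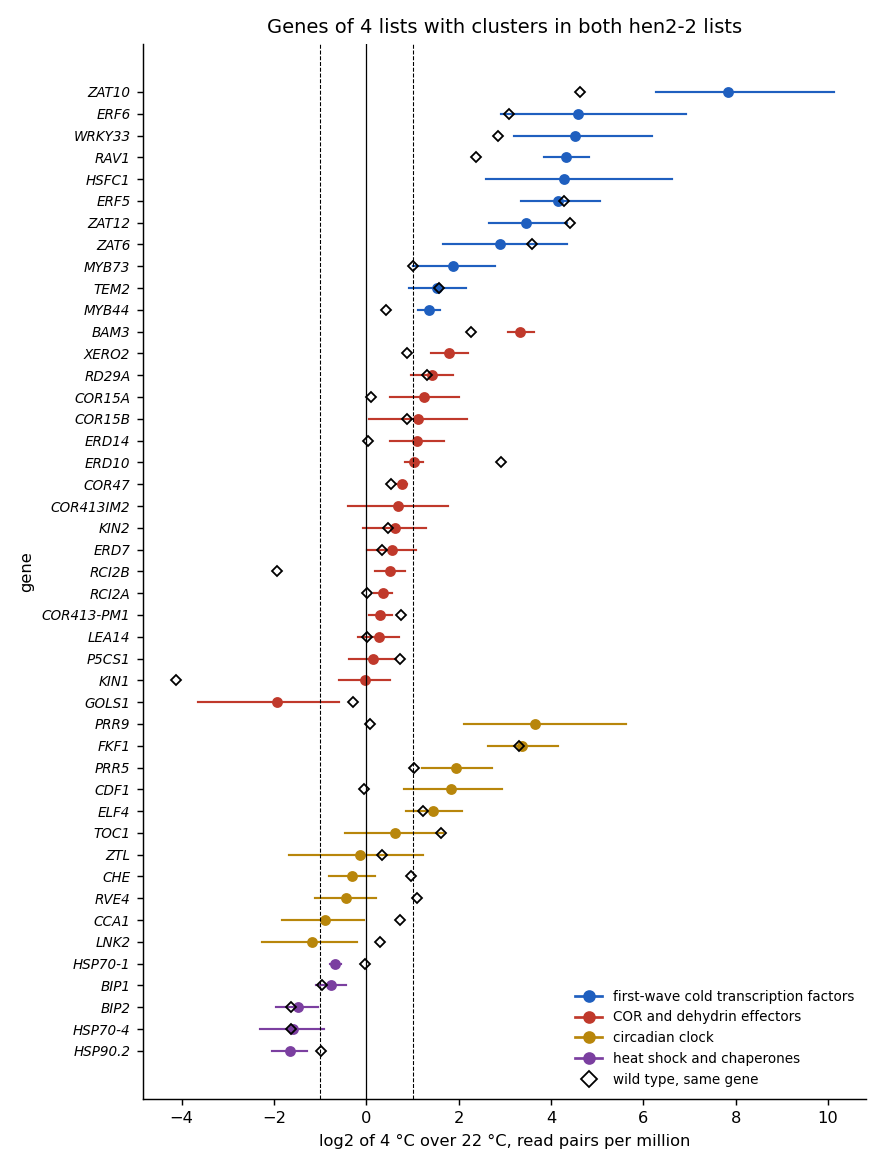
Log2 ratio of 4 °C over 22 °C in RPM for measured genes of 4 lists (y axis) with TIF-clusters in both *hen2-2* lists. Filled points are *hen2-2* with 95% counting intervals as lines, open diamonds are wild type, and dashed lines mark 2-fold differences; *ZAT10* is highest at a log2 ratio of 7.84 in *hen2-2* and *GOLS1* lowest at -1.94.

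Genes upstream of these factors were mostly too scarce to compare. Of 19 genes for calcium-, kinase- and light-dependent cold signalling, 4 were measured. The MAP kinase *MPK3* was higher (44 and 47 pairs, ratio 2.07). *MKK2*, the MAP kinase kinase that acts in cold, had a ratio of 1.73 (1.05 to 2.83), and 16 of its 33 pairs at 4 °C but none at 22 °C were promoter short, as defined below. *ICE1*, an activator of *CBF3*, had a ratio of 1.35 (0.664 to 2.66). Calcium and touch genes gave 3 higher genes among 4 measured, beside 9.6% of all genes. The calmodulin-like gene *CML38* was listed only at 4 °C with 94 pairs, of which 6 were full-length, and so met the minimum through that list alone. *CML24* had 19 and 81 pairs, and the cell wall gene *XTH22* 310 and 526.

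*COR* and dehydrin genes, the effectors of freezing tolerance, differed less. Of 24 listed genes, 18 were measured, of which 7 were higher, 1 lower and 10 between, beside 9.6% higher and 20.1% lower over all genes. The median log2 ratio was 0.65, and -0.19 over all genes. The highest ratio was that of the chloroplast β-amylase gene *BAM3*, with 126 and 659 pairs (10.12-fold, 8.35 to 12.3). The dehydrin genes *XERO2* (83 and 149 pairs), *ERD14* (49 and 54) and *ERD10* (418 and 441) were 3.47-, 2.13- and 2.04-fold higher. *RD29A* (72 and 100 pairs), *COR15A* (30 and 37) and *COR15B* (16 and 18) were 2.69-, 2.39- and 2.18-fold higher, and the interval of *COR15B* reached down to 1.05. In full-length pairs alone, the ratio fell below 2-fold in *ERD14* (1.641), *ERD10* (1.634) and *COR15A* (1.676), but not in *BAM3*, *XERO2*, *RD29A* and *COR15B*. In wild type, *ERD14* (1.031) and *COR15A* (1.066) had ratios near 1. *XERO2* (1.837) and *COR15B* (1.833) stayed below 2-fold there, and *RD29A* (2.488), *BAM3* (4.829) and *ERD10* (7.508) passed it. The abundant dehydrin gene *COR47* stayed below the threshold at 1522 and 1349 pairs (ratio 1.71). *GOLS1*, which makes galactinol for raffinose synthesis, was lower (37 and 5 pairs, ratio 0.261), and *KIN1* had a ratio of 0.978 with 87 and 44 pairs. In wild type *GOLS1* had 46 and 31 pairs (ratio 0.823, 0.505 to 1.33) and *KIN1* 64 and 3 (ratio 0.0573).

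Clock genes gave 5 higher and 1 lower among 11 measured of 23 listed, beside 9.6% and 20.1% of all genes, with a median log2 ratio of 0.61. Those higher were *PRR9* (4 and 26 pairs, 12.6-fold) and *PRR5* (24 and 48, 3.87-fold), which repress morning genes, *ELF4* of the evening complex (41 and 58, 2.74-fold), and the photoperiod genes *FKF1* (19 and 101, 10.3-fold) and *CDF1* (13 and 24, 3.57-fold). *PRR9*, with 4 pairs at 22 °C, could reach the minimum only with a 4 °C count that made it higher. *LNK2*, a coactivator of evening genes, was lower (48 and 11, ratio 0.443). The morning gene *CCA1* had 54 and 15 pairs (ratio 0.537, 0.282 to 0.966), and *LHY* was listed at 0 in both. In wild type *PRR9* (29 and 25 pairs) and *CDF1* (33 and 26) had ratios near 1, whereas *FKF1* (39 and 317) was 9.93-fold higher. *PRR5* (67 and 113, ratio 2.06) and *ELF4* (54 and 104, ratio 2.35) were also higher there. *LNK2* (32 and 32, ratio 1.22) and *CCA1* (40 and 54, ratio 1.65, 1.08 to 2.55) were not lower in wild type.

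Photosystem, light-harvesting and Rubisco genes held 193795 RPM at 22 °C and 205883 RPM at 4 °C. Of the 46 genes, all measured, 42 lay between the thresholds, with a median log2 ratio of 0.12. *LHCA3* of photosystem I was lower at 7661 and 1173 pairs (ratio 0.296, 0.278 to 0.315), as it was in wild type (8758 and 1859). *PSBO2* of the oxygen-evolving complex had 1847 and 325 pairs and *PSBS*, needed to dissipate excess light, 790 and 195. In wild type *PSBO2* had 741 and 843 pairs and *PSBS* 479 and 481. *LHCB4.2* was the only higher gene of the list at 410 and 546 pairs (2.58-fold), with 540 and 1704 in wild type.

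Heat shock and chaperone genes included several lower genes. Of 16 genes, 8 were measured and 6 were lower, beside 20.1% of all genes, and none was higher. *HSP90.1* (76 pairs), *HSP101* (41) and *HSP17.6A* (37) were listed only at 22 °C, in the deeper list, which alone brought them over the minimum and fixed their call. *HSP90.2* had 439 and 72 pairs (ratio 0.317), *HSP70-4* 128 and 22, and the endoplasmic reticulum chaperone gene *BIP2* 266 and 49. Near-identical copies make levels in this family uncertain, since only unique alignments were kept. In wild type the ratios of *HSP70-4* and *BIP2* were 0.324 and 0.325, whereas *HSP90.1* had 13 and 16 pairs.

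Of 18 jasmonate genes, 11 were measured, with 1 higher and 3 lower, which is near the 9.6% and 20.1% of all genes. Their median log2 ratio was -0.58. *JAZ1*, a repressor of jasmonate signalling, had 26 and 138 pairs (10.3-fold, 6.72 to 16.3). The biosynthesis gene *OPR3* had 71 and 6 pairs and the repressor *JAZ9* 34 and 6, and *LOX2* had 21 and 5 with an interval of 0.136 to 1.25. SR splicing factor genes had 13 of 15 measured between the thresholds and a median log2 ratio of -0.46. *RSZ21* (42 and 5 pairs) was lower, and *SR34A* (32 pairs) was listed only at 22 °C. The 4 genes for cold shock and glycine-rich RNA-binding proteins, which act as RNA chaperones, all lay between the thresholds, with ratios of 0.738 for *GRP7* (1169 and 446 pairs) and 0.695 for *CSP2* (295 and 106). In wild type *GRP7* had a ratio of 1.626 (897 and 1194 pairs) and *CSP2* of 1.065 (304 and 265). In the phenylpropanoid list, *PAL1* (55 and 11 pairs) was the only lower gene of 6 measured. Only 2 of 18 RNA surveillance and 3′-end processing genes were measured, and neither passed 2-fold. The 4 measured root genes also lay between the thresholds.

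Outside the lists, genes of little-described function had some of the highest ratios. The glycine-rich protein gene AT1G07135 had 22 and 694 pairs (61.0-fold, 39.98 to 98.0), and AT1G70420 41 and 1111 (52.4-fold, 38.4 to 73.4). AT1G11210 had 10 and 277 pairs, *DIC2*, a mitochondrial dicarboxylate carrier gene, 3 and 79, and the nudix hydrolase gene *NUDT4* 10 and 245. AT4G36010 (3 and 67 pairs), AT1G74450 (12 and 247), *AR781* (3 and 54) and *AIF1* (4 and 70) followed. These genes were also at least 8.37-fold higher in wild type, save AT4G36010, which was listed at 0 in wild type at 22 °C and had 150 pairs at 4 °C. Beside *CBF2* and *CBF3*, the genes with the most pairs listed only at 4 °C were AT3G04640 (433 pairs), AT4G18422 (223) and AT4G27652 (174).

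At the other end, *CAT3*, a catalase that removes hydrogen peroxide, had 2797 pairs at 22 °C and 76 at 4 °C (ratio 0.0526, 0.0413 to 0.0660). *DIN10*, a raffinose synthase family gene induced in the dark, had 1655 and 63 pairs (ratio 0.0736, 0.0563 to 0.0947). In wild type these genes had 403 and 216, and 325 and 150 pairs, so their 22 °C levels in wild type were lower than in *hen2-2*. In *DIN10*, 803 pairs at 22 °C were full-length and none at 4 °C. At 22 °C its largest TIF-cluster (784 pairs) began 111 nt after the annotated start and the next (370 pairs) 236 nt after it, and the largest at 4 °C (28 pairs) began 239 nt after it. *NOP56* of the ribosome-processing machinery (118 and 3 pairs), *LAP1* (107 and 3), the iron transporter gene AT3G25190 (142 and 6), *BGLU18* (158 and 7), the isoprenoid gene *HDS* (209 and 10), *PATL2* (186 and 9), the glucosinolate gene *CYP79B2* (123 and 6) and *TTL3* (52 and 3) completed the 10 lowest ratios. Of these, *BGLU18* (211 and 6 pairs), *LAP1* (49 and 11), AT3G25190 (53 and 0) and *TTL3* (14 and 5, ratio 0.436, 0.123 to 1.28) were also lower in wild type. There *HDS* (170 and 150) and *PATL2* (69 and 64) had ratios near 1 and *CYP79B2* (80 and 49) a ratio of 0.748. *NOP56* (17 and 38) went the other way in wild type, with a ratio of 2.73. The genes with the most pairs listed only at 22 °C were *AGD2* (90 pairs), the transporter gene *ABCG14* (82), *HSP90.1*, AT2G36090 (75) and AT4G23820 (73). AT2G36090 also had few pairs at 4 °C in wild type (66 and 3).

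Next, the kinds of transcript at these genes were compared. A TIF-cluster was called full-length when it spans the coding sequence, short when it is under 350 nt and does not, and promoter short when a short TIF-cluster begins no more than 50 nt past the coding start and ends before the coding sequence does. Over all genes, promoter short TIF-clusters held 2.29% (2.26 to 2.32%) of the pairs at 22 °C and 3.68% (3.62 to 3.74%) at 4 °C, in 1784 and 1630 genes. As levels, promoter short pairs over all genes held 22548 RPM at 22 °C and 36145 RPM at 4 °C, beside which the ratios of single genes below are to be read. Full-length TIF-clusters held 86.3% and 82.7%. The other short TIF-clusters held 2.55% and 4.32%. In wild type the promoter short share was 0.423% at 22 °C and 0.121% at 4 °C, so it was higher at 4 °C in *hen2-2* and lower at 4 °C in wild type. Full-length TIF-clusters were also narrower in the *hen2-2* list at 4 °C (pair-weighted median 1468 nt against 1564 nt at 22 °C). In the shares of short forms, and in the comparisons with full-length forms below, temperature and a list that holds narrower molecules cannot be told apart. The median width of promoter short TIF-clusters in *hen2-2* was 91 nt at 22 °C and 89 nt at 4 °C.

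The promoter short share moved differently in the sets of changed genes. In the 591 higher genes it was 7.75% (7.40 to 8.12%) at 22 °C and 5.60% (5.39 to 5.83%) at 4 °C, in 136 and 171 genes. In the 1235 lower genes it was 1.86% (1.77 to 1.95%) and 3.59% (3.30 to 3.91%), in 195 and 99 genes. In the 4328 genes between the thresholds it was 1.98% and 3.10%. Since all TIF-clusters of a gene entered its call, these shares are a description. As levels, promoter short pairs of the higher genes held 2061 RPM at 22 °C and 5805 RPM at 4 °C, beside 21149 and 82729 RPM of full-length pairs. In the lower genes they held 2052 and 1259 RPM, beside 100237 and 30724 RPM. Among the lower genes, 70 had promoter short pairs at both temperatures, 125 only at 22 °C and 29 only at 4 °C. The corresponding numbers were 106, 30 and 65 of the higher genes. Of the 41 lower genes with both classes in both lists, which leaves out those whose short form was listed at 1 temperature, the log2 ratio of the promoter short pairs was above that of the full-length pairs in 39, with medians of 0.37 and -1.76. The low full-length value is largely set by the call itself. The short form was above in 33 of 76 higher genes and in 475 of 601 genes between. The medians of the short and the full-length form were 1.19 and 1.39 in these higher genes. They were 0.76 and -0.19 in these genes between, so the short form was above the full-length form in genes that passed neither threshold too. Its median there exceeded the 0.37 of the lower genes.

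Among the early transcription factors, 5 of 17 had promoter short TIF-clusters at 4 °C. At *ZAT12*, promoter short pairs numbered 9 and 7, while full-length pairs numbered 6 and 66 (21.3-fold, 9.27 to 60.1). At *TEM2*, 17 promoter short pairs were found at each temperature beside 22 and 41 full-length pairs. *ZAT10*, *RAV1* and *ERF6* had 3 each. The clock gene *ELF4* had 21 and 9 promoter short pairs and 20 and 49 full-length pairs, so that the share of the short form was 51.2% at 22 °C and 15.5% at 4 °C. *JAZ1* (chr1:6621777-6623668, plus strand) showed the reverse, with no promoter short pair among 26 at 22 °C and 41 among 138 at 4 °C (29.7%). Its main short TIF-cluster at 4 °C was 96 nt wide and began 349 nt after the annotated start, where its full-length TIF-clusters began at both temperatures. In wild type *JAZ1* had 13 promoter short pairs among 41 at 22 °C and 7 among 491 at 4 °C, the opposite direction. *COR47* had 170 and 231 promoter short pairs.

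**Figure D3:**
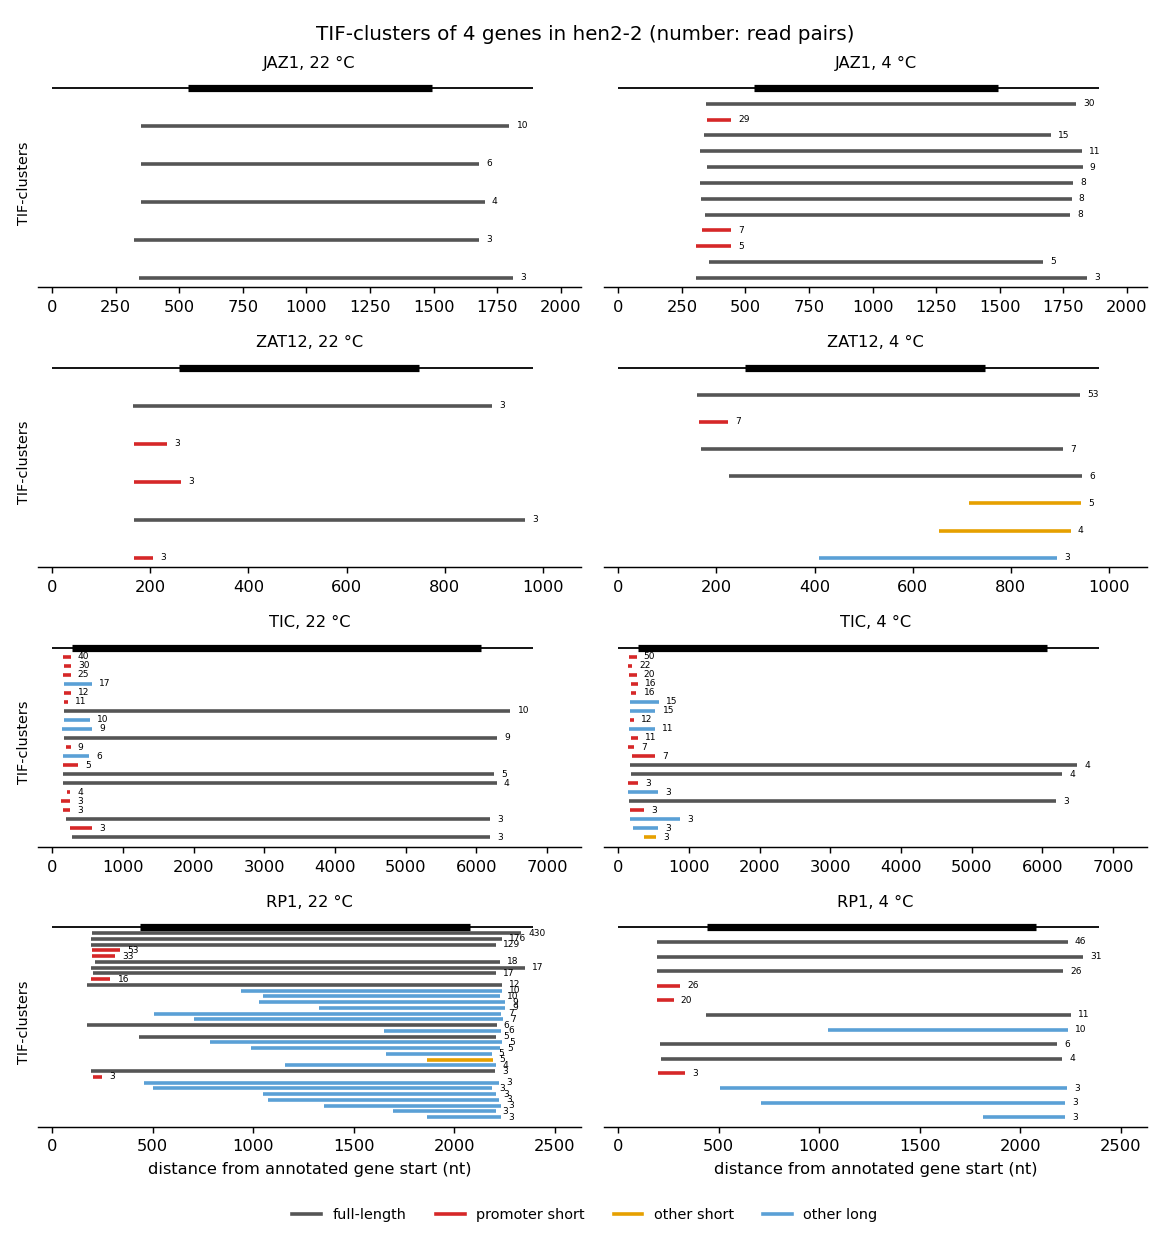
TIF-clusters of *JAZ1*, *ZAT12*, *TIC* and *RP1* in *hen2-2* at 22 °C (left) and 4 °C (right), drawn to scale against the distance from the annotated gene start in nt, with the coding span as a thick black bar and read pairs beside each TIF-cluster. *JAZ1* has 41 promoter short pairs (red) at 4 °C and none at 22 °C, and *RP1* has 813 full-length pairs (grey) at 22 °C and 124 at 4 °C.

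At some higher genes the difference lay in the promoter short form. *TIC*, a clock regulator (chr3:7912905-7919707, plus strand), had 145 and 167 promoter short pairs (2.23-fold, 1.77 to 2.80) and 34 and 11 full-length pairs (0.626-fold, 0.286 to 1.27), and wild type also had 269 and 93 promoter short pairs there. AT1G26300, a BSD-domain gene, had 31 and 74 promoter short pairs (4.62-fold, 3.00 to 7.27) and 13 and 0 full-length pairs. AT1G21280, annotated as a copia-like polyprotein, had 42 and 71 promoter short pairs against 10 and 5. AT1G77540 had 70 and 86 promoter short against 11 and 10 full-length pairs. At the proteasome gene *RPT5B*, 36 and 54 promoter short pairs gave a ratio of 2.90 (1.87 to 4.55) and 38 and 25 full-length pairs a ratio of 1.27 (0.736 to 2.16). *PRIN2* had 53 and 83 promoter short pairs and no other. At AT4G24380 (33 and 83 against 9 and 44) and the profilin gene *PFN2* (55 and 66 against 427 and 543), both forms were higher. With full-length TIF-clusters alone, *TIC* had a log2 ratio of -0.68 and AT1G21280 of -0.05.

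Among the 8 lower genes with most promoter short pairs, 2 kept the short form while full-length pairs were lower. *RP1* (AT1G43170, chr1:16266553-16268945, plus strand), a ribosomal protein gene, had 813 and 124 full-length pairs (0.295-fold, 0.242 to 0.357), whereas its 105 and 49 promoter short pairs gave a ratio of 0.903 (0.629 to 1.28). The share of the short form was 10.3% and 25.5%. AT1G07930, an elongation factor gene with near-identical paralogs and therefore an uncertain level, had 707 and 143 full-length pairs (0.391-fold) and 18 and 22 promoter short pairs (2.36-fold, 1.21 to 4.68). By contrast, both forms were lower at the ribosomal protein gene AT5G48760, with 71 and 16 promoter short and 31 and 6 full-length pairs. The other 5 had mainly or only the promoter short form, so that their call largely set its lower level. They were *EIP9* (37 and 9), AT4G23840 (34 and 6), AT1G13640 (31 and 5), AT3G14410 (29 and 9) and the RNA polymerase V subunit gene *NRPE5* (29 and 6).

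**Figure D4:**
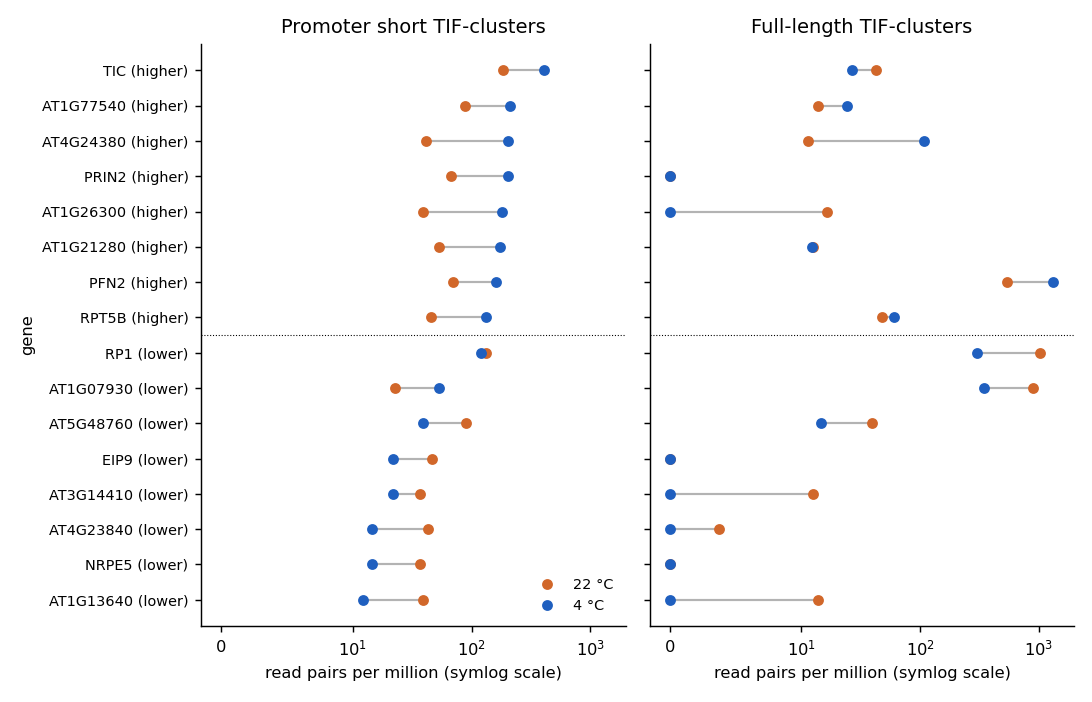
RPM of promoter short (left) and full-length (right) TIF-clusters at 22 °C (orange) and 4 °C (blue) for the 16 changed genes with most promoter short pairs, 8 higher and 8 lower (y axis), on an axis that is linear below 10 and logarithmic above. Promoter short levels of the 8 higher genes are all greater at 4 °C, while full-length levels are not, and the promoter short levels of *RP1* nearly coincide. Short pairs entered the calls, so in genes where they prevail the direction of the short form is largely set by the choice of genes.

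The ends of full-length transcripts were then followed in the 2340 genes with at least 20 full-length pairs in each list. The most used 5′ end lay within 20 nt of its 22 °C place at 4 °C in 86.2% of them, and the most used 3′ end in 75.9%. The corresponding values were 89.7% and 78.9% in 185 higher genes, and 92.5% and 67.0% in 106 lower genes. The median shift of the 3′ end was -2 nt over all genes, 0 nt in higher and -7 nt in lower genes, where negative means nearer the start. The main 3′ end moved by over 100 nt in 49 of the 2340 genes, of which 8 were higher and 1 lower genes, and the main 5′ end in 17, of which 1 was a higher gene. The largest shift in a changed gene was that of AT3G26510, whose main 3′ end lay 862 nt farther downstream at 4 °C with 41 and 42 full-length pairs. The main 3′ end of AT1G70420 lay 109 nt farther downstream (37 and 908 pairs), that of *CAT3* 135 nt nearer the start (2716 and 50 pairs), and the main 5′ end of *bZIP19* 113 nt farther downstream (25 and 29 pairs). These places were chosen after their values were seen.

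Changed genes differed in width, which bears on the counts above and on the comparisons of short with full-length forms. Higher genes had a median full-length width of 1489 nt, lower genes of 2334 nt and all measured genes of 1960 nt, introns included. With genes split into 10 groups by width, the median ratio was 1.12 in the narrowest (median 737 nt) and 0.669 in the widest group (4508 nt). The share of higher genes was 21.5% and 3.05%, and that of lower genes 9.15% and 33.0%. In wild type the median ratio was 0.867 in the narrowest group, 1.16 in the fifth and 0.838 in the widest. Whether the narrower TIF-clusters of the *hen2-2* list at 4 °C come from the seedlings or from the libraries cannot be told apart. With each ratio taken relative to genes of like width, 781 genes were higher and 938 lower, and 575 of the 591 and 925 of the 1235 genes were among them. This alternative was chosen after seeing the data. The median log2 ratio of the early transcription factors was then 4.18 and that of the heat shock genes -1.12.

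**Figure D5:**
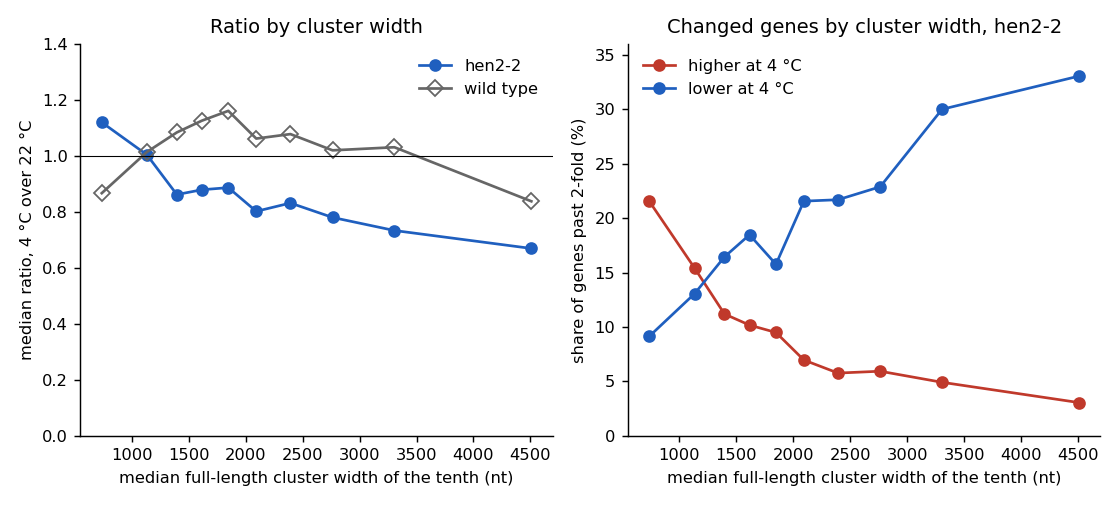
Genes in 10 groups by the width of their full-length TIF-clusters (x axis, median width in nt): the median ratio of 4 °C over 22 °C (left) in *hen2-2* and wild type, and the share of genes past 2-fold in *hen2-2* (right). The median ratio in *hen2-2* goes from 1.12 to 0.669, and the share of lower genes from 9.15% to 33.0%.

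Finally, the changed genes of *hen2-2* were looked up in wild type, where a separate pair of lists was used. Of 5582 genes measured in both genotypes, 741 (13.3%) were at least 2-fold higher and 629 (11.3%) at least 2-fold lower at 4 °C in wild type. Of 517 genes higher in *hen2-2*, 226 (43.7%, against 13.3% of all) were higher in wild type and 33 (6.38%) lower. Of 1060 genes lower in *hen2-2*, 165 (15.6%) were lower in wild type and 108 (10.2%) higher. Over all genes 11.3% were lower and 13.3% higher in wild type. With at least 50 pairs in each genotype, 49 of 346 lower genes (14.2%) were lower and 14 (4.05%) higher in wild type, beside 8.39% and 10.8% of all 3121 genes. Their median log2 ratio was -1.51 in *hen2-2* and -0.03 in wild type over the 911 genes with TIF-clusters in all 4 lists, and that of 475 higher genes was 1.51 and 0.73. Over all 5365 such genes, log2 ratios of the genotypes had a Pearson r of 0.29 and a Spearman rho of 0.21, and over the 951 with at least 200 pairs in each genotype 0.53 and 0.30. These describe genes, which are not replicates. With 1 pooled list a group, differences between the genotypes were not tested.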

How the data were processed

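Capped and polyadenylated RNA of seedlings was sequenced from both ends by TIF-seq. Per the methods of the authors, reads were trimmed, filtered for runs of A or T and aligned to TAIR10 with STAR 2.6.1c, unique alignments were kept, PCR copies were removed by molecular identifiers, and the 2 libraries of each group were merged before clustering. TIF-clusters at genomic runs of A or without a TSS-seq TSS were removed. The deposited values are counts of read pairs per TIF-cluster, at least 3, with no normalization. Unique alignment can lose pairs of near-identical genes, and low levels are cut at 3 pairs per TIF-cluster.

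Here, 4 lists were used, and 2 lists of other genotypes and the TSS-seq samples were not analysed here. TIF-clusters were given to the only coding gene of RefSeq TAIR10.1 that they overlap on their strand. The A of the initiator lay 5 nt before the listed 5′ end (44.8% A on the plus and 46.2% on the minus strand), so listed starts may lie slightly inside the RNA. Counts were scaled to 1000000 pairs of the list (RPM). Genes with at least 20 pairs over both lists were compared and called at 2-fold. Ratios have exact conditional binomial intervals and shares Wilson intervals, both of 95% and for counting error only. Members and lists were chosen with earlier results of these data known. Genes named were the 10 most extreme per direction with at least 50 pairs and TIF-clusters in both lists, the 5 with most pairs listed in 1 list only, called genes of the lists of early cold factors, *COR* genes, RNA-binding proteins and clock, the 4 called genes with most pairs of each other list, the 8 per direction with most promoter short pairs, and *HEN2*; others are named with list results or after their values were seen. Functions were tested on simulated data. Values were computed with scipy 1.17.1, pandas 2.3.3 and numpy 2.4.6 in Python 3.11.15, and plots drawn with matplotlib 3.10.9.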

Additional observations from a re-analysis of the deposited data

Results flagged for a closer look

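In 3 named genes the difference between 4 °C and 22 °C passed 2-fold in opposite directions in the genotypes. *NOP56*, a gene of ribosome processing, had a ratio of 0.0492 in *hen2-2* (118 and 3 read pairs) and of 2.73 in wild type (17 and 38). The jasmonate repressor gene *JAZ9* had a ratio of 0.341 in *hen2-2* (34 and 6) and of 3.57 in wild type (26 and 76). *OPR3*, which acts in jasmonate synthesis, had a ratio of 0.163 in *hen2-2* (71 and 6) and of 5.22 in wild type (11 and 47). The difference between the genotypes was not tested. Over all genes measured in both, 33 were higher in *hen2-2* and lower in wild type, and 108 the other way round.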

How the results depend on the processing

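No paired analysis was possible because each list pools both of its libraries, and for the same reason no replicate could be left out. The numbers of genes higher and lower at 4 °C were 278 and 402 with a minimum of 50 pairs and 1858 and 4442 with none. With the 22 °C list thinned as above, the number lower was 565, of which 527 were also lower in the full lists. With other scalings, with non-overlapping genes, with full-length TIF-clusters alone and with at least 5 pairs per TIF-cluster, both numbers stayed within 1.5 times. Under every alternative run, the medians of the gene lists moved by no more than the median half-width of the counting intervals of their single genes. That half-width was 0.11 to 1.39 in log2 over the lists. It is not the error of a median over several genes, so this is a loose check. The study's rule for short promoter RNAs asks for overlap with 40 nt around the annotated start and with no annotated end. Applied to the RefSeq TAIR10.1 starts used here, it gave promoter short shares at 22 °C and 4 °C of 1.45% and 1.08% in higher genes. They were 0.396% and 0.638% in lower and 0.530% and 0.836% in all genes, so that the directions were kept. The most used 5′ end lay a median of 101 nt after these starts, so many promoter TIF-clusters can miss the window. The study worked with TAIR10 gene annotation, so these are not its values. Thinning gave 7.07%, 1.51% and 1.89% at 22 °C in these sets, and full-length shares of 81.3%, 92.1% and 87.5%. In non-overlapping genes the promoter short share was 6.31% and 4.09% in higher genes, 4.06% at 4 °C in lower genes and 2.39% and 3.79% in all. The full-length share was then 80.5% at 4 °C in higher genes, 91.3% and 86.6% in lower genes and 85.7% and 81.8% in all. With short defined as under 200 nt, the promoter short share in all genes was 2.19% and 3.54%. With at least 50 pairs, 251 higher and 346 lower genes were measured in both genotypes, of which 137 and 14 were higher and 9 and 49 lower in wild type, beside 336 higher and 262 lower of all 3121 genes. In windows before the most used 5′ end, an alternative chosen after seeing the data, higher genes held the ABRE core in 36.6% and the G-box in 13.5%, and lower genes the CRT/DRE core in 17.3%, the ABRE core in 26.5% and the G-box in 9.71%, against 17.2%, 30.8% and 11.5% of measured genes for the 3 motifs in that order. With full-length TIF-clusters alone, *TIC* (log2 ratio -0.68) and AT1G21280 (-0.048) changed direction, as their promoter short pairs were then left out. Among the comparisons made for the 77 named genes with a ratio, 532 stayed within counting error, 26 moved and the 2 above changed direction. Genes near 20 pairs have intervals wider than 2-fold, so a missing call is not evidence of no difference at this depth.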
